A study of Mus musculus with 4 samples.

Results

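Cluster 10 was 1 of the 15 numbered cell clusters of the authors' deposited table of marker genes, and its members were all entries that the table gives under that number. It had 131 entries out of 2212, for 131 of the 1197 genes of the authors' deposited table, which made it the cluster with the fifth most entries. The cells came from mouse embryonic stem cells taken through a directed cardiac differentiation and profiled singly on a droplet platform. The 4 libraries were Brm KO cells at a mesoderm stage, Brm KO cells at the later stage whose cell type is labelled cardiac progenitors, and WT cells at each of those stages. All 4, the WT libraries included, carried the BRG1 3XFLAG tag on a core ATPase of the BAF chromatin remodelling complex, and Brm is the alternative ATPase of that complex. Each genotype and stage had 1 library, and the table's columns name no library, so genotypes and stages could not be compared and the values below come without replicates. The name it was deposited under mentions Brm KO alone, so it may not hold cells of WT libraries.

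Fibroblasts and other mesenchymal cells secrete and assemble extracellular matrix, the fibrillar collagens together with the glycoproteins and proteoglycans that bind them. In the embryo, such cells arise from several sources, among them the epicardium, the somites, the lateral plate and the neural crest, and transcription factors rather than matrix genes usually tell these sources apart. Tbx18 is best known in the epicardium, the sinus horn and the anterior somite, and Postn (periostin) in cardiac valves and connective tissue.

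Each entry sets the cells of a cluster against all other cells. A fold is the exponential of the natural log fold change, and a detection share is the percent of cells with at least 1 count of the gene. The table reaches down to a natural log fold change of 0.5 in size and to 25.1% detection on the side where a gene is better detected. A gene without an entry for cluster 10 may therefore still differ there by less than this. The clusters were formed on these same cells and genes, so cluster 10 against the other cells is a description and no test. The sources used here give neither numbers of cells nor counts per cell, so the precision of single values is unknown, and a higher share of cells with a gene cannot be told apart from deeper reading of those cells. By the balance of detection shares inside and outside clusters, cluster 10 held 2.93% of cells, the 11th largest of the 15 clusters, derived from the authors' deposited table (standard error of the fit 0.0121 percentage points over 407 genes).

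Of the 131 genes, 82 were higher in cluster 10 and 49 were lower. They made up 6.85% and 4.09% of the 1197 genes of the authors' deposited table. Every count of list members given below is to be read beside these shares. Of the 82 higher genes, 30 had no entry for any other cluster. They were in the table through cluster 10 alone, which bears on the list counts and on the shares. Folds of the higher genes ran from 1.66 to 8.63 with a median of 2.16 per the authors' deposited table. Those of the lower genes ran from 1.65 to 6.14 with a median of 1.83. The median natural log fold changes, 0.77 for higher and -0.60 for lower genes, stood beside 0.74 and -0.68 over all clusters per the authors' deposited table. The higher genes were detected in a median of 38.7% of the cells of cluster 10 and 15.6% of the other cells, and 24 of them were detected in under 10% of the other cells. Most of the higher genes were thus seen in a minority of the cells on either side, while 31 of the 82 were seen in at least 50% of the cells of cluster 10.

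**Figure D1:**
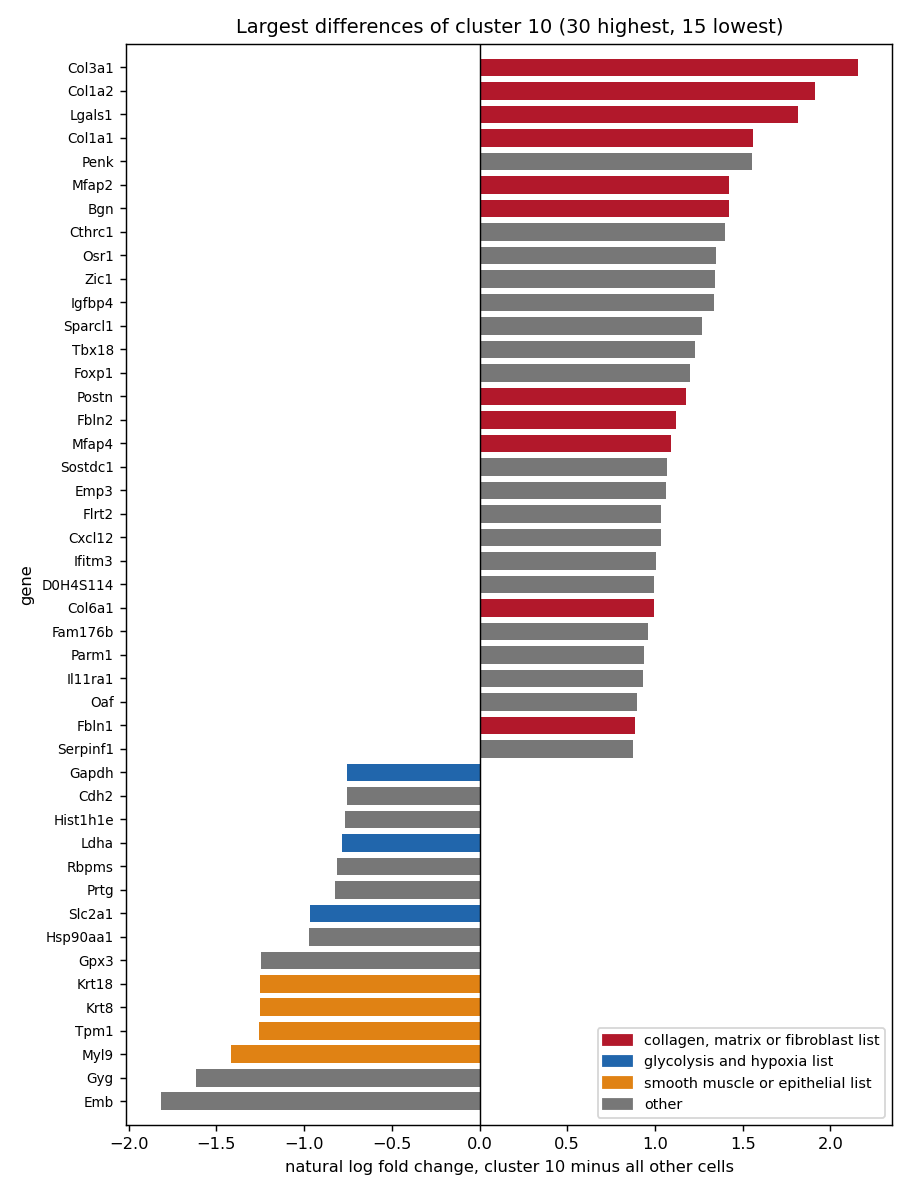
Natural log fold change, cluster 10 minus all other cells, on the horizontal axis for the 30 highest and 15 lowest genes of cluster 10, down the page, with bars coloured by gene list. Genes of the collagen, matrix and fibroblast lists take 11 of the 30 highest places, from Col3a1 at 2.16, and the lowest bars belong to Emb at -1.81 and Gyg at -1.62.

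The fibrillar collagen genes led the cluster. Col3a1, a chain of the collagen III fibrils of elastic connective tissue, was 8.63-fold higher per the authors' deposited table, with detection in 85.7% of the cells of cluster 10, against 7.1% of the other cells. Col1a2 and Col1a1 encode the 2 chains of collagen I. Col1a2 was 6.75-fold higher, with detection in 78.6% of cluster 10 cells and 10.7% of other cells per the authors' deposited table. Col1a1 was 4.75-fold higher per the authors' deposited table, with detection in 59.7% of cluster 10 cells and 7.6% of other cells. Although the cluster held only 2.93% of cells, it held 26.7% of all cells that detected Col3a1, 18.1% of those that detected Col1a2 and 19.2% of those that detected Col1a1, derived from the authors' deposited table. Cluster 5, with 8.51% of cells, also listed these genes as higher. It detected them in 52.1%, 51.1% and 28.3% of its cells, in the same order. By size and detection, cluster 5 thus held more of the detecting cells of each gene than cluster 10, derived from the authors' deposited table.

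Further collagens had smaller folds. Col6a1, a chain of the beaded microfilaments around cells, was 2.70-fold higher per the authors' deposited table, with detection in 27.4% of cluster 10 cells and 1.8% of other cells. The cartilage collagens Col2a1 and Col9a1 were 2.25-fold and 2.08-fold higher, and Emid2 (now Col26a1) was 2.17-fold higher, per the authors' deposited table. Serpinh1, the collagen chaperone of the endoplasmic reticulum, was 1.86-fold higher, with detection in 81.6% of cluster 10 cells and 64.6% of other cells per the authors' deposited table. The list of collagen chains and collagen assembly genes had 20 members in the table. In cluster 10, 8 of these were higher and 0 were lower, beside 6.85% and 4.09% of all genes. The other 12 had no entry for cluster 10: the basement membrane chains Col4a1 and Col4a2 were listed higher for cluster 14 alone, and the processing genes P4ha1, Loxl2 and Pcolce for cluster 9 or for clusters 9 and 14, per the authors' deposited table.

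The proteins that organise collagen and elastic fibres were higher beside the collagens. Mfap2 and Mfap4, microfibril-associated glycoproteins, were 4.15-fold and 2.98-fold higher per the authors' deposited table. Bgn, the small proteoglycan biglycan, was 4.14-fold higher, with detection in 53.7% of cluster 10 cells and 6.9% of other cells per the authors' deposited table. Fbln2 and Fbln1, the fibulins, were 3.07-fold and 2.43-fold higher, and Fbn2, the fibrillin of embryonic microfibrils, was 2.16-fold higher, per the authors' deposited table. Postn was 3.24-fold higher, with detection in 33.3% of cluster 10 cells and 3.4% of other cells per the authors' deposited table. Vcan, the large proteoglycan versican, was 2.12-fold higher and Gpc3, a glypican of the cell surface, 1.73-fold higher per the authors' deposited table. These were the 9 of 20 matrix glycoprotein and proteoglycan genes in the table that were higher in cluster 10, with a median natural log fold change of 1.09, and 0 were lower. Over all genes in the table, 6.85% were higher and 4.09% lower. Fibronectin (Fn1), Sparc, Emilin1 and Ctgf had no entry for cluster 10 and were listed higher for cluster 9, while the laminins Lama1, Lamb1 and Lamc1 and the perlecan gene Hspg2 were listed higher for cluster 14 alone, per the authors' deposited table.

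Other secreted proteins stood high in the ranking too. Cthrc1, a secreted protein with a collagen triple helix repeat that is made by matrix-depositing cells, was 4.06-fold higher, with detection in 61.6% of cluster 10 cells and 17.3% of other cells per the authors' deposited table. Sparcl1, a matrix-binding relative of Sparc, was 3.54-fold higher per the authors' deposited table, with detection in 51.4% of cluster 10 cells and 10.1% of other cells. Cthrc1 was also higher in cluster 3 and Sparcl1 in cluster 2. Tgfbi, a matrix protein induced by TGF-beta, was 2.14-fold higher and Serpinf1 2.40-fold higher per the authors' deposited table. Penk, which encodes the opioid peptide precursor proenkephalin and is also active in embryonic mesenchyme, was 4.73-fold higher per the authors' deposited table. It was detected in 45.9% of cluster 10 cells and 4.4% of other cells, and it had no entry for any other cluster per the authors' deposited table. Trh, Nppb and Cpe, the other 3 neuropeptide genes in the table, had no entry for cluster 10.

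**Figure D2:**
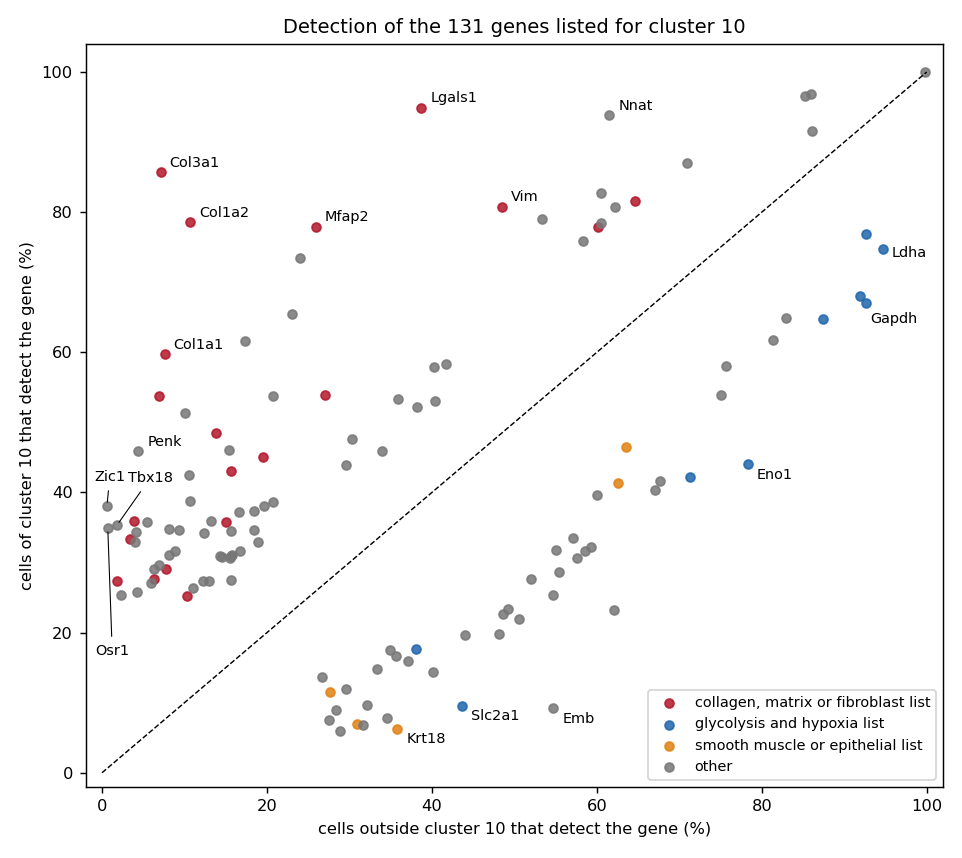
Percent of cells that detect each of the 131 genes, in cluster 10 on the vertical axis and outside it on the horizontal axis, with 1 point per gene, colours for the gene lists and a dashed line at equal shares. Col3a1, Col1a2, Zic1, Osr1 and Tbx18 lie far above the line at the left, whereas Emb at 9.2% and 54.7% and Slc2a1 at 9.6% and 43.7% lie below it.

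Zic1, Osr1 and Tbx18, all transcription factors, were the 3 of the 82 higher genes with the largest share of their detecting cells in cluster 10. Zic1, a zinc finger factor of the dorsal neural tube and the dorsal somite, was 3.82-fold higher, with detection in 38.1% of cluster 10 cells and 0.6% of other cells per the authors' deposited table. Osr1, a zinc finger factor of the intermediate and lateral plate mesoderm and of limb connective tissue, was 3.86-fold higher per the authors' deposited table, with detection in 34.9% of cluster 10 cells and 0.7% of other cells. Tbx18 was 3.42-fold higher per the authors' deposited table, with detection in 35.3% of cluster 10 cells and 1.8% of other cells. Cluster 10 held 65.7% of all cells that detected Zic1 (63.9% to 67.7% when the deposited shares are rounded), 60.1% of those that detected Osr1 (58.4% to 61.9%) and 37.2% of those that detected Tbx18 (36.5% to 37.9%), derived from the authors' deposited table. None of the 3 had an entry for another cluster. All 3 were nevertheless undetected in more than 60% of the cells of cluster 10, and whether the same cells held all 3 cannot be read from the table.

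Other regulators were less tied to the cluster. Foxp1, a forkhead repressor, was 3.31-fold higher, with detection in 65.5% of cluster 10 cells and 23% of other cells per the authors' deposited table. Twist1, a factor of mesoderm and neural crest mesenchyme, was 1.79-fold higher per the authors' deposited table, with detection in 25.2% of cluster 10 cells and 10.3% of other cells. Foxd1, Sox4, Klf6, Tcf12, Lmo4 and Mdfi, named after their values were seen, were 2.24-fold, 1.87-fold, 2.11-fold, 1.90-fold, 1.90-fold and 1.81-fold higher per the authors' deposited table. Foxd1, known from the stroma of the kidney and from the retina, was also higher in clusters 5 and 11, and Klf6, Tcf12 and Lmo4 had no entry elsewhere. Otx2, a factor of the forebrain and midbrain, was 1.87-fold lower per the authors' deposited table, with detection in 9% of cluster 10 cells and 28.4% of other cells.

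The promoters of Col1a2, Tbx18 and Zic1 are shown as those of a matrix gene and of regulators of the cluster, chosen because their windows hold the motif searched. Both Postn windows held no match and are not shown. Each sequence is the 250 bases before the RefSeq start on build GRCm38.p6, 5′ to 3′ on the strand of the gene, and capitals mark CCAAT or its reverse complement ATTGG. The Col1a2 promoter lies at chr6:4505368-4505617 on the plus strand, that of Tbx18 at chr9:87731261-87731510 on the minus strand and that of Zic1 at chr9:91365769-91366018 on the minus strand.
Col1a2: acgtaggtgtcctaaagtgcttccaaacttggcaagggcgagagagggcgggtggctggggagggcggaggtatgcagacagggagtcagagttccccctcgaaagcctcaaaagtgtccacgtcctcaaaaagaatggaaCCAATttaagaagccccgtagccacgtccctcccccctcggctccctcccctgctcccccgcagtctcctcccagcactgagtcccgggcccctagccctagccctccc
Tbx18: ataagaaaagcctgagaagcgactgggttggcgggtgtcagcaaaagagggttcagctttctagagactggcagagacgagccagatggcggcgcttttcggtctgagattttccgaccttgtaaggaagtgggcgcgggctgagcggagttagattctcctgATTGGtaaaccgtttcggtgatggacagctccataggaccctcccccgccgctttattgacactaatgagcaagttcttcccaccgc
Zic1: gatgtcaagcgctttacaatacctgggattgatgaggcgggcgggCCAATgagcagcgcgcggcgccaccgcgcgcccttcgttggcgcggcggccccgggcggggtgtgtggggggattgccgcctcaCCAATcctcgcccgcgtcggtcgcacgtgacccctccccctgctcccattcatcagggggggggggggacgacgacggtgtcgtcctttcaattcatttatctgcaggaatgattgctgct
The Zic1 window held 2 matches and the others 1 each. Among all 27025 genes with such a window, 37.5% held the motif on either strand, counting a gene with several starts once if any window matched. Of the 82 higher genes, 59 had a window and 44.1% of these held it, as did 7 of the 14 collagen, matrix and fibroblast genes with a window and 50% of the 42 lower genes with a window. A 5-base match is a description of the letters and not a binding site.

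Cell surface, growth factor and cytoskeletal genes made up another share of the higher genes. Igfbp4 and Igfbp2, which bind insulin-like growth factors, were 3.79-fold and 1.69-fold higher per the authors' deposited table, and the other 6 genes of that list in the table had no entry for cluster 10. Cxcl12, the chemokine of stromal cells, was 2.82-fold higher, with detection in 32.9% of cluster 10 cells and 4% of other cells per the authors' deposited table. Flrt2, an adhesion and guidance protein of the cell surface, was 2.82-fold higher and Il11ra1, a receptor of interleukin 11, was 2.54-fold higher per the authors' deposited table. Nkd1, a feedback inhibitor of Wnt signalling, was 2.33-fold higher and Sostdc1, a secreted antagonist of BMP and Wnt ligands, was 2.91-fold higher, per the authors' deposited table. Of the signalling lists, 2 of the 12 genes in the table for Wnt and retinoic acid signals were higher. So were 1 of the 13 for BMP and TGF-beta (Tgfbi) and 0 of the 5 for FGF, PDGF and Notch. Among the 3 lists, 0 members were lower, and counts this small set no list apart. The shares over all genes were 6.85% higher and 4.09% lower.

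Lgals1, the sugar-binding protein galectin-1, was the third gene of the cluster, 6.13-fold higher with detection in 94.9% of cluster 10 cells and 38.7% of other cells per the authors' deposited table. Vim, the intermediate filament of mesenchymal cells, was 2.30-fold higher per the authors' deposited table, with detection in 80.8% of cluster 10 cells and 48.5% of other cells. Vim was also higher in clusters 9, 1, 12 and 6, and detected in 79.8% of the cells of cluster 1, per the authors' deposited table. The thymosins Tmsb10 and Tmsb4x, which bind actin monomers, were 2.20-fold and 1.69-fold higher per the authors' deposited table. Anxa6, Anxa2, S100a11 and S100a10, calcium-dependent membrane binders and their partners, were 1.93-fold, 1.71-fold, 1.86-fold and 1.70-fold higher per the authors' deposited table. With Lgals1 they made 7 of 17 genes on the list of calcium-binding, annexin and secretory genes, and the endoplasmic reticulum chaperone Hsp90b1 was the 1 member that was lower, 1.67-fold per the authors' deposited table. The interferon-induced membrane genes Ifitm3 and (chosen after its values were seen) Ifitm2 were 2.74-fold and 2.17-fold higher per the authors' deposited table. The Ifitm genes resemble each other, and Tmsb10, Tmsb4x, Gapdh, Eno1, Pgk1 and Ldha have processed pseudogenes, so reads may have been split among copies and their values are less certain.

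The remaining genes among the 30 with the highest folds were Emp3, Parm1, Oaf, D0H4S114 (now Nrep) and Fam176b (now Eva1b), with folds between 2.46 and 2.89 per the authors' deposited table. Parm1 stood out among them by detection, in 25.4% of cluster 10 cells and 2.3% of other cells per the authors' deposited table. Nnat, an imprinted gene, was 1.85-fold higher per the authors' deposited table, with detection in 93.8% of cluster 10 cells and 61.5% of other cells. Snrpn, another imprinted gene, was 1.73-fold lower per the authors' deposited table, and the other 13 imprinted genes in the table had no entry for cluster 10. Of the genes outside the rule for naming, 32 were higher, between 1.66-fold and 2.33-fold, and 19 were lower, between 1.66-fold and 2.05-fold, per the authors' deposited table. Zfp36l1, at 1.66-fold, was among the weakest entries on the higher side, just inside the limit of the authors' deposited table.

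The fibroblast name was set beside the gene lists. The 6 markers behind the name were taken from entries of cluster 10 itself, so their place there is no check of it. Of a wider fibroblast and mesenchyme list, 11 of the 19 genes in the table were higher, with a median natural log fold change of 1.42 and 0 lower. Over all genes in the table, 6.85% were higher. Col1a2, Col3a1, Lgals1 and Postn, among these 11, are also label markers, so the count and median are not independent of the name. The other 8 of the 19, Pdgfra, Fn1, Sparc, Fstl1, Gsn, Twist2, Prrx2 and Mmp2, had no entry for cluster 10. Pdgfra, the receptor often used to sort cardiac fibroblasts, was listed higher for cluster 14 alone per the authors' deposited table. Dcn, Lum, Thy1, Tcf21, Pdgfrb and Ddr2, markers of mature fibroblasts and pericytes, were in the table for 0 clusters, which says only that none passed its limits. Of the epicardial list, 4 genes were in the table and Tbx18 was the 1 that was higher, while Wt1, Tcf21, Aldh1a2 and Upk3b had no entry for any cluster. Of the same 19 fibroblast genes, 8 were higher in cluster 5 and 9 in cluster 9. Of the 20 collagen genes, 8 were higher in cluster 10, 6 in cluster 5 and 6 in cluster 9. For the 20 matrix glycoprotein and proteoglycan genes, these counts were 9, 4 and 7. Postn, Fbln1, Fbln2, Fbn2, Col6a1 and Twist1 were in the table through cluster 10 alone, which adds to its counts. Others, such as Twist2 for cluster 5 and Fn1 for cluster 9, entered through those clusters alone. The clusters also differed in their totals: cluster 5 had 49 higher entries and cluster 9 had 115, beside 82 for cluster 10. Cluster 10 was thus fibroblast-like by its matrix genes, a trait also seen in clusters 5 and 9. As cluster 5 had fewer higher entries in all, these counts alone do not place it below cluster 10 in this trait. The table gives cluster 10 no epicardial gene beside Tbx18.

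Lists of other cell types had few genes in the table, so their counts are small whatever the cell type. Over all genes, 6.85% were higher and 4.09% lower, and lists this short set no cell type apart. The cartilage list had 4 genes in the table, of which Col2a1 and Col9a1 were higher and Sox9 and Matn4 had no entry for cluster 10. The lateral plate list had 1 of 6 members higher (Osr1), the paraxial mesoderm list 1 of 3 (Tbx18), the neural crest list 1 of 2 (Twist1) and the neural progenitor list 1 of 11 higher (Zic1) and 1 lower (Otx2). None of the 10 primitive streak genes, the 12 cardiac progenitor genes, the 13 neuron genes, the 10 pluripotency genes or the 4 endothelial and blood genes in the table had an entry for cluster 10. Hox genes, which tell positions along the body axis apart, were in the table for 0 clusters. None of the 3 BAF subunit genes in the table and none of the 10 mitochondrially encoded genes had an entry for cluster 10.

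Some contractile and epithelial genes were on the lower side, which held 4.09% of all genes in the table. Of the 14 smooth muscle and cytoskeletal genes in the table, 0 were higher and 3 were lower: Myl9, a regulatory myosin light chain, was 4.12-fold lower, Tpm1, the tropomyosin that is also abundant in heart muscle, 3.51-fold lower and Myl6 2.05-fold lower per the authors' deposited table. With cluster 2, which heart muscle genes lead, taken out of the other cells, all 3 came inside the bound of 0.5 on the natural log scale, Myl9 at -0.28, Tpm1 at -0.43 and Myl6 at -0.29, derived from the authors' deposited table. Tpm1 was also the 1 member of the 29 cardiomyocyte genes with an entry for cluster 10. Krt8 and Krt18, the paired keratins of simple epithelia, were 3.50-fold and 3.49-fold lower, with detection in 7% and 6.3% of cluster 10 cells, against 30.9% and 35.8% of other cells, per the authors' deposited table. Both keratins were also lower in 7 other clusters each, cluster 5 among them. They have no entry for cluster 2 and could not be recomputed without it. The endoderm list had 1 lower gene, Apoe, at 1.66-fold per the authors' deposited table.

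The lowest gene of all was Emb, which encodes embigin, an adhesion protein that escorts monocarboxylate transporters. It was 6.14-fold lower and was detected in 9.2% of cluster 10 cells and 54.7% of other cells per the authors' deposited table. Emb was also lower in 9 other clusters, cluster 5 at 6.44-fold among them, and higher in clusters 3 and 7, per the authors' deposited table. Gyg, which primes glycogen synthesis, was 5.04-fold lower and Gpx3, an extracellular glutathione peroxidase, 3.48-fold lower per the authors' deposited table, and both came inside the bound without cluster 2. Prtg (protogenin, of early mesoderm and neural tissue), Cdh2 (N-cadherin) and Rbpms were 2.28-fold, 2.13-fold and 2.25-fold lower per the authors' deposited table. Rbpms, which also came inside the bound without cluster 2, had the lowest detection of the 131 genes, 5.9% of cluster 10 cells against 28.9% of other cells per the authors' deposited table.

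Glycolysis was the list with the most lower members. Of its 18 genes in the table, 9 were lower and 0 higher, with a median natural log fold change of -0.71, beside 4.09% of all genes lower. Slc2a1, the glucose transporter of most dividing cells, was 2.63-fold lower and was detected in 9.6% of cluster 10 cells and 43.7% of other cells per the authors' deposited table. Ldha, which makes lactate, was 2.19-fold lower, Gapdh 2.13-fold, the enolase Eno1 2.04-fold and the pyruvate kinase Pkm2 (now Pkm) 2.03-fold lower per the authors' deposited table. Bnip3, a mitophagy gene induced by hypoxia, was 1.81-fold lower, and Pgk1, Pgam1 and Aldoa were each between 1.70-fold and 1.74-fold lower, per the authors' deposited table. Of these, Bnip3, Pgk1 and Aldoa came inside the bound of 0.5 without cluster 2. Ldha was still detected in 74.7% of cluster 10 cells, against 94.7% of other cells, per the authors' deposited table.

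Promoters of Ldha and Slc2a1 are shown because they stand for the lower glycolysis genes and hold the core letters of the hypoxia response element. Each is the 250 bases before a RefSeq start on build GRCm38.p6, on the plus strand, at chr7:46845554-46845803 for the first of the Ldha windows and at chr4:119108495-119108744 for Slc2a1. Capitals mark ACGTG or its reverse complement CACGT, and a CACGTG stretch counts on both strands.
Ldha: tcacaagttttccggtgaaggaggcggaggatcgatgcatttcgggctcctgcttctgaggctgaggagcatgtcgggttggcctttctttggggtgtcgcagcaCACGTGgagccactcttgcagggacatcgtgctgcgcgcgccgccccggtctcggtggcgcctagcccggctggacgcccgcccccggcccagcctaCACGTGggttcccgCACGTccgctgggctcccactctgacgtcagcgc
Slc2a1: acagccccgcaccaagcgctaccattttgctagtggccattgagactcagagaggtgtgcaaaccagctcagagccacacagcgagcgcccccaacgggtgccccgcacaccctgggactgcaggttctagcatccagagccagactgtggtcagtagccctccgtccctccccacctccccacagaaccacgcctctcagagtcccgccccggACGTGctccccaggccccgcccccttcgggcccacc
This Ldha window held 5 matches, some of them overlapping, the other Ldha window, not shown, held 0, and the Slc2a1 window held 1. The motif was in at least 1 window of 7 of the 9 lower glycolysis genes, or 77.8%, and of 18.5% of the 27025 genes with a window. It was also in 33.9% of the higher and 33.3% of the lower genes of cluster 10 with a window, so the share was alike on both sides. The match says nothing of binding or of hypoxia in these cells.

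Some genes of the stress and cell cycle lists were on the lower side. Hsp90aa1, the inducible cytosolic chaperone, was 2.64-fold lower and was detected in 23.2% of cluster 10 cells and 62.1% of other cells per the authors' deposited table. Nasp and Dut, genes of S phase, were 2.08-fold and 1.75-fold lower, and Hmgb2 and Top2a, genes of the G2 and M phases, were 1.75-fold and 1.65-fold lower, per the authors' deposited table. These were 2 of the 10 S phase genes and 2 of the 25 G2 and M phase genes in the table, beside 4.09% of all genes, and 0 of either list were higher. Hsp90aa1 was the 1 of 8 stress and immediate early genes with an entry for cluster 10. Hist1h1e, a linker histone gene, was 2.16-fold lower per the authors' deposited table. Ncl, Npm3, Supt16h and Anp32b, genes of the nucleolus and of chromatin named after their values were seen, were 2.05-fold, 1.98-fold, 1.87-fold and 1.72-fold lower per the authors' deposited table. None of the 9 G1 cyclin and cell cycle inhibitor genes in the table had an entry for cluster 10.

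The entries of the same genes for other clusters differed between the higher and the lower side, which the table's limits partly set. A lower gene had to pass the detection limit outside cluster 10, and all of them were detected in at least 26.7% of other cells. A higher gene could pass that limit through cluster 10 alone. The counts below are therefore a description. Of the 82 higher genes, 30 had no entry for any other cluster and 50 were also higher for at least 1 other, per the authors' deposited table. The 30 had folds between 1.69 and 4.73 with a median of 2.33, derived from the authors' deposited table, and included Penk, Osr1, Zic1, Tbx18, Postn, Fbln2, Flrt2, Cxcl12, Col6a1 and Parm1. For 57 of the 82, cluster 10 had the highest level among the clusters that list the gene, derived from the authors' deposited table. No other cluster was listed as higher for 32 of these 57, and among the 50 genes that had such a cluster, cluster 10 was highest for 25. On the lower side 0 of the 49 genes were free of other entries, 48 were also lower elsewhere and 17 were lower in at least 5 other clusters, per the authors' deposited table. Gpx3 and Myl9 were lower in 10 other clusters each.

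**Figure D3:**
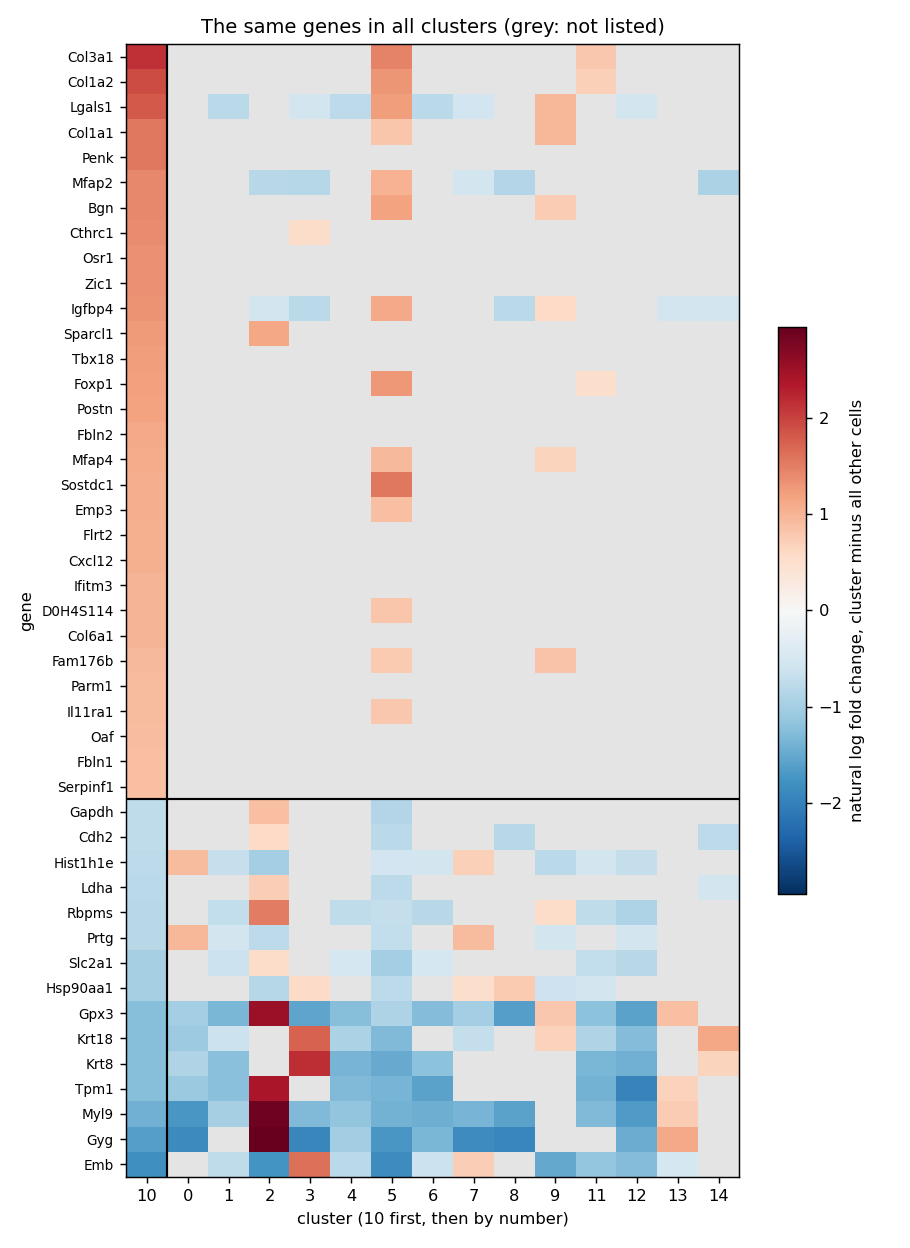
Natural log fold change (colour scale) of the 30 highest and 15 lowest genes of cluster 10, in rows, for cluster 10 in the first column and the other 14 clusters by number, each minus all other cells, with grey where the table has no entry. Penk, Osr1, Zic1, Tbx18 and Postn are coloured in the first column alone, and Gyg, Myl9, Tpm1 and Gpx3 are blue in most columns and red in cluster 2.

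Cluster 5 shared the most genes with cluster 10. It held 8.51% of cells, and its leading genes were Sostdc1, Col9a1, Col3a1, Col2a1 and Col1a2. The clusters shared 30 higher genes, 36.6% of those of cluster 10 and 61.2% of those of cluster 5, and 35 lower genes, 71.4% and 68.6%. Both comparisons use mostly the same other cells, so these overlaps are a description. With the level in each cluster solved from its fold and its size, 60 of the 66 genes listed for both lay within 0.5 of each other on the natural log scale, derived from the authors' deposited table.

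Collagen genes were 4 of the 6 exceptions. Higher in cluster 10 than in cluster 5 were Col3a1 by 0.74 on the natural log scale, Col1a1 by 0.74, Col1a2 by 0.67, Lgals1 by 0.63 and Igfbp2 by 1.12, derived from the authors' deposited table. Col3a1 was detected in 85.7% of cluster 10 cells and 52.1% of cluster 5 cells, and Col1a1 in 59.7% and 28.3%, per the authors' deposited table. Col9a1 differed by -0.55, the 1 gene past the bound in the other direction, and was detected in 27.7% of cluster 10 cells and 46.5% of cluster 5 cells, derived from the authors' deposited table. Col2a1 differed by -0.36, Tgfbi by -0.35 and Sostdc1 by -0.26, all inside the bound, derived from the authors' deposited table. Igfbp2 was the 1 gene with opposite entries, higher in cluster 10 and 1.93-fold lower in cluster 5 per the authors' deposited table. Of the cartilage list, 2 genes were higher in cluster 10 and all 4 in cluster 5, and of the matrix glycoproteins 9 were higher in cluster 10 and 4 in cluster 5, per the authors' deposited table. Postn, Fbln1, Fbln2 and Fbn2 were in the table through cluster 10 alone, and Sox9 and Matn4 through cluster 5 alone, so these counts are a description. All 9 lower glycolysis genes were lower in both clusters.

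**Figure D4:**
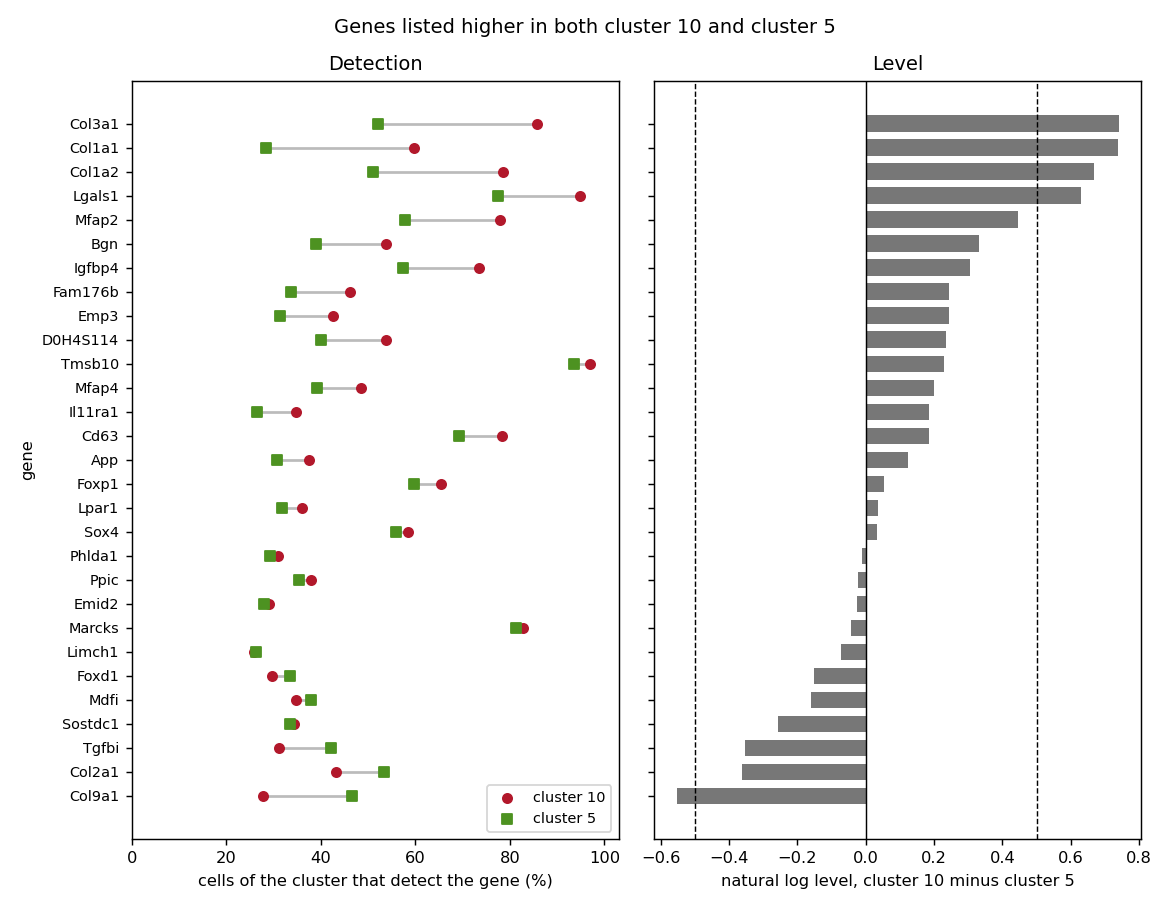
The 29 drawn of the 30 genes higher in both cluster 10 and cluster 5, down the page: the left panel gives the percent of cells that detect each gene in cluster 10 (circles) and in cluster 5 (squares), the right panel the natural log level in cluster 10 minus that in cluster 5, with dashed lines at -0.5 and 0.5. Col3a1, Col1a1, Col1a2 and Lgals1 pass the right line, Col9a1 passes the left one, and the other bars end between them.

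Cluster 9 shared the next most higher genes, and cluster 11 was level with clusters 2, 12 and 14 by that count, all with 6, but these made up the largest share of its own list. Cluster 9, with 3.24% of cells and with Igfbp7, Tagln and Vim in the lead, shared 18 higher genes (22.0% of those of cluster 10 and 15.7% of its own) and 16 lower genes (32.7% and 33.3%) per the authors' deposited table. It listed 9 of the 14 smooth muscle and cytoskeletal genes as higher, Acta2 and Tagln among them, where cluster 10 listed 0, per the authors' deposited table. Among the 39 genes listed for both, Nnat was higher in cluster 10 by 1.56, Lgals1 by 0.75, Igfbp4 by 0.70, Bgn by 0.62 and Col1a1 by 0.53 on the natural log scale, derived from the authors' deposited table. Gpx3, Krt18, Apoe and Rbpms differed by -1.98, -1.88, -1.36 and -1.30, derived from the authors' deposited table, and each was higher in cluster 9 than in its other cells. Anxa2, Tmsb4x and Vim, higher in both, differed by -0.68, -0.63 and -0.52, derived from the authors' deposited table.

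Cluster 11, with 1.86% of cells, had 10 higher genes, of which 6 were shared, 7.32% of those of cluster 10 and 60.0% of its own, per the authors' deposited table. It shared 16 lower genes, 32.7% and 84.2%. Col3a1 and Col1a2 were higher in cluster 10 than in cluster 11 by 1.18 and 1.08 on the natural log scale, and Foxp1 by 0.62, derived from the authors' deposited table. Emb differed by -0.67, and the other 18 genes listed for both lay within 0.5, derived from the authors' deposited table. For these 18, the share of cells that detected the gene was lower in cluster 10 for all 18, with a median of 25.5% in cluster 10 and 40.8% in cluster 11, per the authors' deposited table. Col2a1 was detected in 43.1% of cluster 10 cells and 67.6% of cluster 11 cells at levels that differed by 0.03, derived from the authors' deposited table. At like levels, detection in cluster 10 was higher for 47 of the 60 genes set beside cluster 5 and lower for 23 of the 27 set beside cluster 9, derived from the authors' deposited table. Like levels thus came with unlike detection, and the part of counts per cell in that was not tested.

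Further lower entries moved without cluster 2, which the heart muscle genes Actc1, Myl7, Myl4 and Tnnt2 lead. Gyg was detected in 11.9% of cluster 10 cells and 98.1% of cluster 2 cells per the authors' deposited table. With cluster 2 taken out of the other cells, 38 of the 49 lower genes could be recomputed, and 14 of them came closer to 0 than -0.5 on the natural log scale, derived from the authors' deposited table. Gyg came to -0.42, Gpx3 to -0.33 and Rbpms to -0.44 beside the 3 contractile genes, derived from the authors' deposited table. The glycolysis genes divided: Slc2a1 at -0.88, Ldha at -0.66 and Gapdh at -0.59 stayed past -0.5, whereas Pgk1 at -0.42, Aldoa at -0.33 and Bnip3 at -0.24 did not, derived from the authors' deposited table. Eno1, Pkm2 and Pgam1 have no entry for cluster 2 and were not recomputed. Emb came to -1.93, Hsp90aa1 to -1.05 and Nasp to -0.83, further from 0 than before, derived from the authors' deposited table. On the higher side 16 genes could be recomputed and 3 came under 0.5, Nnat and Gpc3 at 0.49 and Igfbp2 at 0.41, derived from the authors' deposited table.

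**Figure D5:**
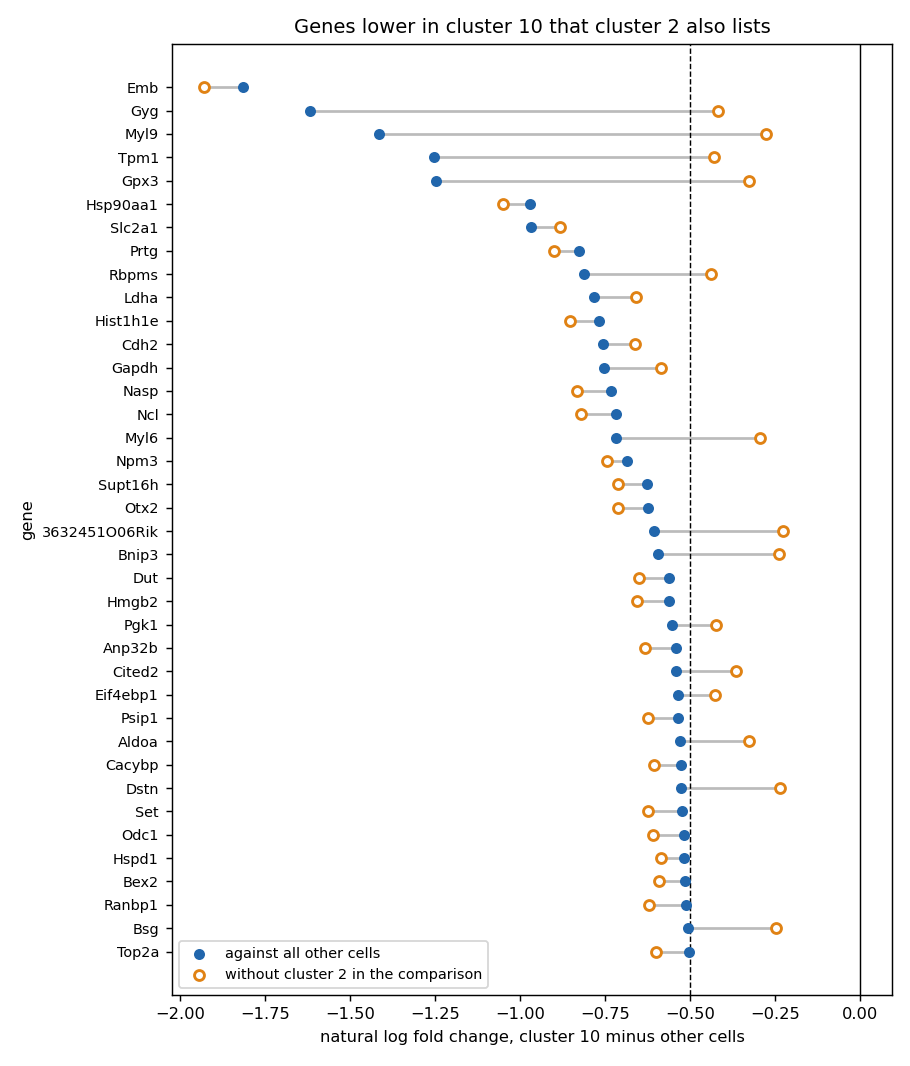
Natural log fold change of the 38 lower genes of cluster 10 that cluster 2 also lists, down the page, against all other cells (filled) and with cluster 2 taken out of them (open), with a dashed line at -0.5. Gyg, Myl9, Tpm1 and Gpx3 move furthest to the right, to between -0.43 and -0.28, while Emb, Hsp90aa1 and the replication genes move to the left.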

How the data were processed

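The 4 libraries were made with 10x droplet chemistry. Cell Ranger, Seurat and the mm9 build were used, per the submitters' processing notes. The sources used here do not give versions, cell filters, doublet treatment, clustering settings or the libraries that entered the table. The authors deposited natural log fold changes of each cluster against all other cells. The sources used here do not give the constant added before logs, and folds of weak genes may be understated. The natural base held for 4 of 4 genes tested, and bases 2 and 10 for 0. The authors deposited each detection share as a fraction of cells inside and outside the cluster, printed here as percent. P-values in the authors' deposited table compare cells, which are not replicates, and served only as 1 alternative filter. The number of per-sample columns left unused was 0.

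Cluster sizes were solved by least squares, since every cluster that lists a gene must give the same share of all cells detecting it. The sum of the sizes was 100.002%, and the SD of the residuals was 0.0272 percentage points. From size and fold came the level of a gene in a cluster relative to all cells, the share of detecting cells in cluster 10, and folds with a cluster taken out of the comparison. Levels 0.5 or more apart in natural log units were called different. The sizes and levels were tested on simulated data without sampling noise. The shares of detecting cells and the folds with a cluster taken out were not tested that way. Named genes were the 30 highest and 15 lowest without predicted or clone names, the 6 label markers, list members listed for cluster 10 and the 10 highest without higher entries elsewhere. Counts cover all genes, and 1 gene that this rule takes is not reported here. Members and lists were chosen with earlier results of these data known. Of the names, 123 were current symbols and 8 matched older ones in RefSeq, whose promoters on GRCm38.p6 were searched for motifs. No coordinates come from the deposited file. Python 3.11.15, numpy 2.4.6, pandas 2.3.3 and matplotlib 3.10.9 were used.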

Additional observations from a re-analysis of the deposited data

How the results depend on the processing

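All values here derive from the authors' deposited table. The 82 higher genes became 43 where the log fold change had to reach 0.75, 22 where it had to reach 1, 31 with detection of at least 50% on the higher side and 32 without genes higher in another cluster. The 49 lower genes became 15, 7 and 27 under the first 3 of these. With cluster 2 taken out of the other cells, 16 higher and 38 lower genes could be recomputed and 3 and 14 lost their place, which left 79 and 35 with the other 66 and 11 as deposited. With cluster 5 taken out, chosen after seeing the data, 31 higher and 35 lower genes could be recomputed and Igfbp2 lost its place at 0.48, which left 81 and 49 with the other 51 and 14 as deposited. The deposited adjusted p-value under 0.05 kept 82 and 49. The cluster's size was 2.95% as a median gene by gene. The 59 list members became 18 where the log fold change had to reach 1 and 28 at 50% detection. The 6 genes differing from cluster 5 became 15 at a bound of 0.25 and 1 at 1. No direction reversed among the genes recomputed without cluster 2 or cluster 5. The filters on fold, detection, p-value and other clusters only drop genes and could not reverse a direction. No paired analysis was possible because the table names no library and each genotype and stage has 1 library. Cell numbers and depth are unknown, which limits every value.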

Other observations

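Some of the 131 genes lie next to each other among the coding genes of the RefSeq order. Krt18 and Krt8 are adjacent on chromosome 15 and were both lower, and S100a11 and S100a10 are adjacent on chromosome 3 and were both higher, per the authors' deposited table. Igfbp4 and Top2a are adjacent on chromosome 11 and had opposite entries, 3.79-fold higher and 1.65-fold lower per the authors' deposited table. Anxa6 and Gpx3, with 1 coding gene between them, were also opposite, 1.93-fold higher and 3.48-fold lower per the authors' deposited table.

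Further higher genes of cluster 10, chosen after their values were seen, have roles outside the matrix. Plk2, Socs2, Ctnnb1 and Chd3 among them had no entry for another cluster. Plk2, a stress-responsive kinase, was 2.33-fold higher, and Socs2, a suppressor of cytokine signalling, was 1.81-fold higher, per the authors' deposited table. Ctnnb1, the beta-catenin of adhesion and Wnt signalling, was 1.69-fold higher, with detection in 53.1% of cluster 10 cells and 40.4% of other cells per the authors' deposited table. Chd3, a chromatin remodeller of the NuRD complex, was 1.86-fold higher per the authors' deposited table. Lpar1, a receptor of lysophosphatidic acid, and Gja1, the gap junction protein connexin 43, were 2.18-fold and 1.91-fold higher, with further higher entries for clusters 5 and 1, per the authors' deposited table.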
